A study of Mus musculus with 6 samples.

Results

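The genes described here build and steer the transport vesicles of the cell: the COPI and COPII coats, the ARF and SAR1 GTPases that load those coats, a pair of p24 cargo receptors, Rab GTPases and the retromer. They were chosen by name and function, with earlier results of these data known. The list held 43 genes, and every probe that the array annotation gives to a listed gene was taken. Of the 43 genes, 41 had at least 1 probe, 80 probes in all, and 37 genes with 64 probes passed the filter on dim probes and were tested. The array names 19057 genes, of which 11080 were tested.

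Whole lungs at embryonic day 18.5, of 3 R26Foxf1; Tie2-cre embryos and of 3 controls with R26-LSL-Foxf1 alone, were profiled on Illumina mouse BeadChips, 1 lung per array. R26-LSL-Foxf1 is a Foxf1 construct targeted to the ROSA26 locus behind a floxed stop cassette, so the controls carry the silent construct as well. In R26Foxf1; Tie2-cre lungs the Tie2-cre transgene removes the stop in endothelial and hematopoietic cells only, while the RNA came from all cells of the lung. The groups are called Tie2-cre lungs and control lungs from here on, and values of single lungs are log2 signals in the order of replicates 1, 2 and 3. The titles call the lungs biological replicates, and the p values measure the spread between these lungs. Neither litters nor chips are given in the labels, so any part of litter or chip in that spread was not separated. The authors describe the controls as littermates, without naming which lungs share a litter.

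Newly made secretory and membrane proteins leave the endoplasmic reticulum in COPII vesicles, which form when SAR1 is loaded with GTP and recruits the Sec23-Sec24 inner coat and the Sec13-Sec31 cage. COPI vesicles, recruited by ARF GTPases, bring escaped residents and receptors back from the Golgi. Rab GTPases then give each compartment its identity and call up the motors, tethers and exchange factors of the next step, and retromer retrieves receptors from endosomes. In the late fetal lung, alveolar epithelial cells use this route to load lamellar bodies with surfactant proteins, and endothelial cells use it to make their storage granules and to recycle junction proteins and growth factor receptors.

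On each array between 19831 and 20043 probes were detected. Of 20118 tested probes, 908 passed the threshold, an adjusted p under 0.05 by limma with a fold change of at least 1.2, and 53.7% of these were higher in Tie2-cre lungs (39.3% of 921 under cyclic loess normalization). Foxf1 itself read 10.93, 10.77 and 10.83 on the log2 scale in Tie2-cre lungs, against 10.68, 10.15 and 10.77 in control lungs, which did not overlap, and it missed the threshold (change of 0.31 in log2, adjusted p = 0.285). Xist read 4.41 in Tie2-cre replicate 3, against 11.87 or more in the other 5 lungs. Markers of distal lung epithelium (7 of 7 detected, summed signal 67947 to 84816 in Tie2-cre lungs and 76399 to 84094 in control lungs), endothelium (6 of 7, with Kdr detected on no array) and mesenchyme (5 of 5) were present. The summed endothelial signal was 34440 to 36961 in Tie2-cre lungs and 28845 to 32277 in control lungs, a sum led by Egfl7 (14.17 to 14.23 in Tie2-cre lungs and 13.78 to 13.90 in control lungs, log2), while the mean log2 signal of the list overlapped (10.84 to 11.01 in Tie2-cre lungs and 10.67 to 10.87 in control lungs). Neutrophil markers (5 of 7 detected) summed to 1889 to 5283 in Tie2-cre lungs and to 5649 to 8124 in control lungs, a sum led by S100a8, and their mean log2 signal overlapped as well (6.72 to 8.25 in Tie2-cre lungs and 7.75 to 8.24 in control lungs). Skeletal muscle markers (7 of 7 detected) summed to 1548 to 4566 in Tie2-cre lungs and to 7474 to 59824 in control lungs. Control replicate 2 was the highest, also for lymphocyte and thymus markers (9351, against 2883 to 5015 in the other control lungs and 3275 to 3770 in Tie2-cre lungs). The filter kept 1 of 10, Cd8b1 (11.31 to 11.80 in all lungs), which led the Tie2-cre sums. Cd8a and Dntt were detected on no array. Cd3g read 9.78 and 11.37 in control replicates 1 and 2, against 5.18 in control replicate 3 and 4.58 to 4.84 in Tie2-cre lungs. Cd3d, Cd3e and Rag1 were likewise high in control replicates 1 and 2 only. Heart muscle markers (4 of 4 detected) summed to 4181, 55965 and 33753 in Tie2-cre lungs and to 12855, 14993 and 45452 in control lungs. None of the markers kept by the filter passed the threshold, and the dimmer ones, such as the Cd3 genes, were not compared. The part of all these markers in the values that follow was not tested.

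By the brightest tested probe of each gene, 1 of the 37 genes passed the threshold, Rab1b, which fell in Tie2-cre lungs, and 0 rose, where 2.98% of all genes tested passed (1.44% lower and 1.54% higher). Counting every probe, 3 of 64 passed, 1 higher and 2 lower, or 4.69%, against a background of 4.51% (2.43% higher and 2.09% lower). The median log2 fold change of the 37 genes was -0.02, with 17 means higher and 20 lower in Tie2-cre lungs, beside a median of 0.05 over all genes tested. At an unadjusted p under 0.05 with the same fold limit, 10 of the 37 genes differed, 2 higher and 8 lower, where the background was 11.8% higher and 8.57% lower. The groups did not overlap in 13 of the 37 genes, or 35.1%, against 29.4% of all genes tested, and in 26 of the 64 probes, or 40.6%, against 31.9% of all probes. The share of calls thus lay near that of the array, both by the brightest probe and over all probes, and among the genes at an unadjusted p lower values were the more frequent.

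**Figure D1:**
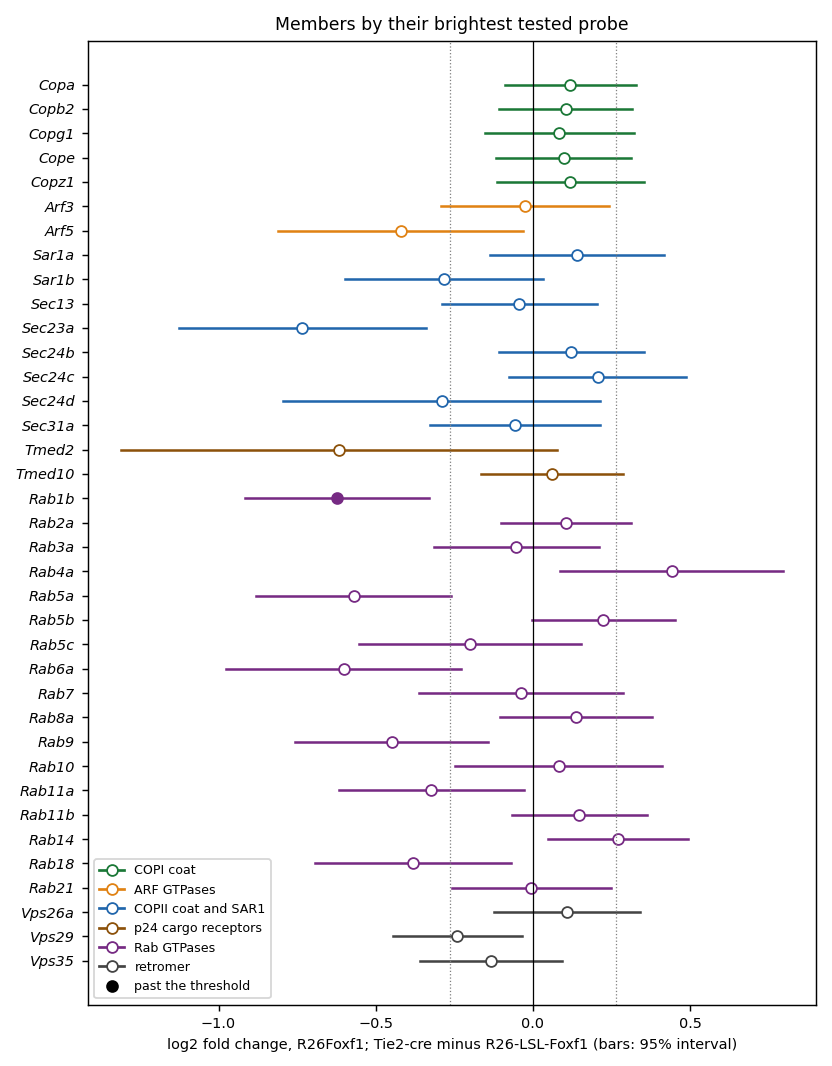
Log2 fold change, Tie2-cre minus control lungs, of each of the 37 tested genes by its brightest tested probe, with its 95% interval (horizontal bars, limma, 3 lungs per group) and with dotted lines at a 1.2-fold change. Rab1b (filled) is the only gene past the threshold, the 5 COPI subunits lie just above 0, and the Rab genes spread from -0.62 to 0.44.

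Rab1b, which governs transport from the endoplasmic reticulum to the Golgi, read 9.63, 9.92 and 9.77 in Tie2-cre lungs, against 10.49, 10.22 and 10.50 in control lungs (probe ILMN_2693124). Every Tie2-cre lung was below every control lung, and the log2 fold change was -0.62 ± 0.13 (SE; 95% interval -0.92 to -0.33; adjusted p = 0.0441 by limma). The second probe of Rab14, a GTPase that moves cargo between the Golgi and early endosomes, rose: it read 10.06, 9.99 and 9.99 in Tie2-cre lungs, against 9.55, 9.62 and 9.28 in control lungs (log2 fold change 0.53 ± 0.12, SE, adjusted p = 0.0494). The annotation names no transcript for this Rab14 probe. The second probe of Vps29, a retromer subunit, fell: it read 10.36, 10.22 and 10.30 in Tie2-cre lungs, against 10.72, 10.75 and 10.73 in control lungs (log2 fold change -0.44 ± 0.09, SE, adjusted p = 0.0458). In each of these probes the groups were apart, and the control lungs of Vps29 had an SD of 0.02. Leaving out any lung but control replicate 2 ended the Rab1b call, with adjusted p values between 0.0596 (without Tie2-cre replicate 2) and 0.145 (without control replicate 1), and the log2 fold change stayed between -0.72 and -0.55 over all 6 omissions. The same 5 omissions ended the Rab14 call (adjusted p = 0.0854 to 0.142), and all 6 ended the Vps29 call (adjusted p = 0.0581 to 0.145), with log2 fold changes of 0.43 to 0.60 for Rab14 and -0.47 to -0.40 for Vps29.

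The promoters of these 3 genes are shown because these are the genes with a probe past the threshold (RefSeq, GRCm38.p6, from 250 bases before to 50 bases after the annotated start, 5′ to 3′ in the direction of transcription). Capitals mark the GC box GGGCGG or its reverse complement and the CCAAT box CCAAT or its reverse complement. The windows are Rab1b chr19:5106947-5107246 on the minus strand, Rab14 chr2:35201071-35201370 on the minus strand and Vps29 chr5:122354078-122354377 on the plus strand. Rab1b and Vps29 hold 2 GC boxes each, Rab14 holds 1, and Rab1b alone of these holds a CCAAT box.
Rab1b: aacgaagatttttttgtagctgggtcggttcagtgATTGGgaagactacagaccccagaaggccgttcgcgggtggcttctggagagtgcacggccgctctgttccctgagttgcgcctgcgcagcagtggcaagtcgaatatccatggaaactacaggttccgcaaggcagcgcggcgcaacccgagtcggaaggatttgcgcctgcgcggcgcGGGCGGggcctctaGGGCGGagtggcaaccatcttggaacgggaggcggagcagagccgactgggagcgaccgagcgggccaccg
Rab14: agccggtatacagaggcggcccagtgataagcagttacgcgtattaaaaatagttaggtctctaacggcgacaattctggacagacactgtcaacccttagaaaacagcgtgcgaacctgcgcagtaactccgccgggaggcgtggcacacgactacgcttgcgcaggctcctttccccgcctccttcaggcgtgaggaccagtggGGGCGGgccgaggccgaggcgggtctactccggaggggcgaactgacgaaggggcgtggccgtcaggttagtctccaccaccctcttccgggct
Vps29: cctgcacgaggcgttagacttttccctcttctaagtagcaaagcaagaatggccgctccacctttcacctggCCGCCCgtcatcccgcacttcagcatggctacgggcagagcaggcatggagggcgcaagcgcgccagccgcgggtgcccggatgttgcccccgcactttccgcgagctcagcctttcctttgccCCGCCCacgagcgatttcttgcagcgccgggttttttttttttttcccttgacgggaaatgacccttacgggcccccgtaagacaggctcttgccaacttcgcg

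**Figure D2:**
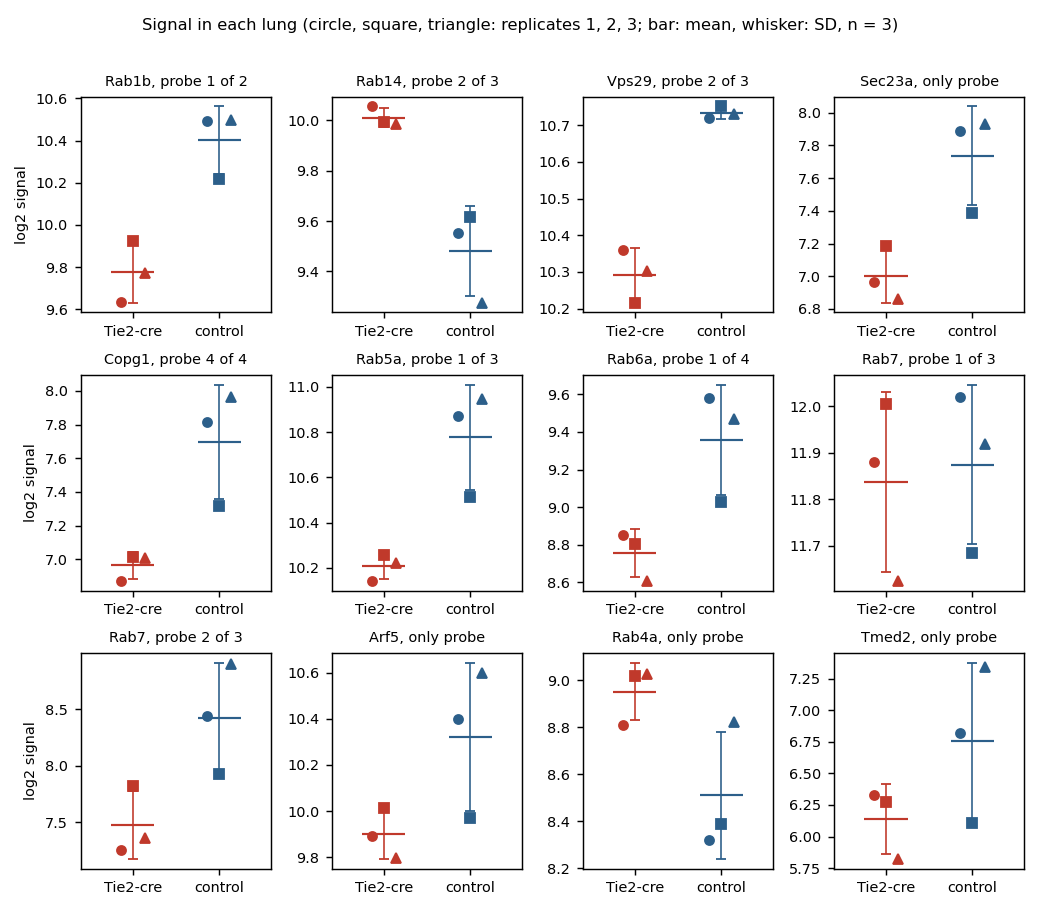
Log2 signal of 12 probes of 11 of these genes in each lung, Tie2-cre lungs on the left (red) and control lungs on the right (blue), with the group mean (bar) and SD (whisker, n = 3). In Sec23a, Copg1, Rab5a, Rab6a and the second Rab7 probe the lowest control lung is replicate 2 (square), and the brightest Rab7 probe overlaps between the groups.

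The COPI coat genes lay close to 0. Of its 7 subunits 5 were tested, and by the brightest probe all 5 had a higher mean in Tie2-cre lungs, with log2 fold changes of 0.08 to 0.12. None passed the threshold by limma, and 0 differed at an unadjusted p with the fold limit. Copa, the alpha subunit that reads retrieval signals on cargo, was at 11.65, 11.57 and 11.58 in Tie2-cre lungs and at 11.48, 11.51 and 11.46 in control lungs (log2 fold change 0.12 ± 0.09, SE, adjusted p = 0.434). Its groups did not overlap, nor did those of Copb2, the beta prime subunit (12.48, 12.48 and 12.47 in Tie2-cre lungs, against 12.32, 12.36 and 12.44 in control lungs). Copg1 (gamma), Cope (epsilon) and Copz1 (zeta) overlapped by the brightest probe. The 95% intervals of all 5 subunits lay inside a 1.5-fold change in either direction, which 69.2% of all genes tested also did. Copg1 had 4 tested probes, and the dimmest read 6.87, 7.01 and 7.01 in Tie2-cre lungs, against 7.81, 7.31 and 7.96 in control lungs (change of -0.73 in log2, adjusted p = 0.0547). The other Copg1 probes had log2 fold changes of 0.02 to 0.14. Copb1 (beta) was detected in no lung and Arcn1 (delta) in 1 Tie2-cre and 1 control lung, so neither was tested.

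Of the ARF GTPases, Arf3 and Arf5 were tested, Arf4 was detected in no lung, and Arf1 had no probe named for it. Arf5, which acts at the Golgi and its intermediate compartment, read 9.89, 10.01 and 9.80 in Tie2-cre lungs, against 10.40, 9.97 and 10.60 in control lungs (log2 fold change -0.42 ± 0.17, SE, adjusted p = 0.163). Control replicates 1 and 3 were above every Tie2-cre lung and control replicate 2 was among them. Arf3, also a Golgi ARF, had a change of -0.02 in log2 (adjusted p = 0.912).

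Among the COPII genes, 8 of 10 were tested, the median log2 fold change was -0.05, and none passed the threshold, with 1 at an unadjusted p, Sec23a. This gene encodes the inner coat subunit that stimulates GTP hydrolysis by SAR1. It read 6.97, 7.18 and 6.86 in Tie2-cre lungs, against 7.89, 7.39 and 7.93 in control lungs, so that the groups were apart, with control replicate 2 the nearest to the Tie2-cre lungs. The log2 fold change was -0.73 ± 0.17 (SE; 95% interval -1.13 to -0.34; adjusted p = 0.0529), the largest in size among the 37 genes by the brightest probe. Its partners in the inner coat, the cargo-binding Sec24 subunits, had log2 fold changes of 0.12 (Sec24b, adjusted p = 0.467), 0.21 (Sec24c, adjusted p = 0.317) and -0.29 (Sec24d, adjusted p = 0.427). The cage subunits Sec13 and Sec31a were at -0.04 and -0.06. Of the GTPases that start the coat, Sar1a was at 0.14 and Sar1b at -0.28 (adjusted p = 0.486 and 0.230), and the second Sar1b probe, at -0.22, did not overlap between the groups. Sec24a was detected in no lung, and Sec23b had no probe named for it.

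The p24 proteins Tmed2 and Tmed10 pair with each other and carry anchored proteins out of the endoplasmic reticulum. Tmed10 had log2 fold changes of 0.06 and -0.17 by its 2 tested probes. Tmed2 read 6.33, 6.27 and 5.82 in Tie2-cre lungs, against 6.82, 6.11 and 7.34 in control lungs (log2 fold change -0.62 ± 0.30, SE, adjusted p = 0.236). Control replicate 2 lay below 2 of the Tie2-cre lungs, and the interval ran from -1.31 to 0.08.

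All 17 Rab genes were tested, with log2 fold changes of -0.62 to 0.44. By the brightest probe 8 of 17 differed at an unadjusted p with the fold limit, 2 higher and 6 lower, where 20.4% of all genes did. The groups did not overlap in 9 of 17, or 52.9%, against 29.4% of all genes tested and 23.3% of the 30 other Rab genes tested. Both Rab lists were chosen with earlier results of these data known, so these shares are a description and not a test. Only Rab1b passed the adjusted threshold. Among those of the early secretory route, Rab2a, which acts in retrieval from the Golgi, had a change of 0.10 in log2 (adjusted p = 0.490). Rab6a, which directs retrograde traffic through the Golgi, read 8.85, 8.81 and 8.61 in Tie2-cre lungs, against 9.58, 9.03 and 9.47 in control lungs (log2 fold change -0.60 ± 0.16, SE, adjusted p = 0.0721). Its second probe gave -0.65 (adjusted p = 0.0518), and in these probes all Tie2-cre lungs were below all control lungs. The third probe was instead higher in every Tie2-cre lung (6.96, 7.17 and 6.94 in Tie2-cre lungs, against 6.72, 6.90 and 6.94 in control lungs, a change of 0.17 in log2, adjusted p = 0.376), with Tie2-cre and control replicates 3 almost level, and the dimmest was at 0.05. Rab18, found on the endoplasmic reticulum and lipid droplets, read 10.41, 10.06 and 10.15 in Tie2-cre lungs, against 10.72, 10.41 and 10.64 in control lungs (change of -0.38 in log2, adjusted p = 0.128). Tie2-cre replicate 1 and control replicate 2 met at 10.41.

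The Rab genes of early and recycling endosomes lay on both sides of 0. Rab5a, the early endosome GTPase that drives fusion of incoming vesicles, read 10.14, 10.26 and 10.22 in Tie2-cre lungs, against 10.87, 10.51 and 10.95 in control lungs (log2 fold change -0.57 ± 0.13, SE, adjusted p = 0.0549). The groups were apart, and control replicate 2 was the control lung nearest to the Tie2-cre lungs. Its paralogs Rab5b and Rab5c had log2 fold changes of 0.22 (adjusted p = 0.196) and -0.20 (adjusted p = 0.433). Rab4a, which returns receptors quickly from early endosomes to the surface, read 8.81, 9.02 and 9.03 in Tie2-cre lungs, against 8.32, 8.39 and 8.82 in control lungs (log2 fold change 0.44 ± 0.15, SE, adjusted p = 0.122). Tie2-cre replicate 1 and control replicate 3 lay side by side, and the other lungs of the groups were apart. Rab11a, of the slow recycling endosome, read 7.41, 7.37 and 7.22 in Tie2-cre lungs, against 7.52, 7.57 and 7.88 in control lungs (change of -0.32 in log2, adjusted p = 0.157). Rab11b, its close relative, had a change of 0.15 in log2 (adjusted p = 0.343). In each of these Rab11 genes the groups did not overlap, and they lay in opposite directions. The brightest Rab14 probe read 12.01, 12.15 and 12.08 in Tie2-cre lungs, against 11.76, 11.88 and 11.79 in control lungs, so the Tie2-cre lungs were again all higher (log2 fold change 0.27 ± 0.10, SE, adjusted p = 0.130). The third Rab14 probe had the opposite sign (-0.28, adjusted p = 0.301), with overlapping groups. Rab21, an endosomal Rab that binds integrins, was at -0.01 (95% interval -0.26 to 0.25), the only gene of the 37 whose interval lay inside a 1.2-fold change.

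For late endosomes, Rab7, which matures endosomes and carries them to lysosomes, was split between its probes. The brightest read 11.88, 12.01 and 11.63 in Tie2-cre lungs and 12.02, 11.69 and 11.92 in control lungs (change of -0.04 in log2, adjusted p = 0.889). The second read 7.25, 7.82 and 7.36 in Tie2-cre lungs, against 8.44, 7.93 and 8.90 in control lungs (change of -0.95 in log2, adjusted p = 0.0748), and the third gave -0.81 (adjusted p = 0.0747). The brightest probe overlapped and the others did not. Rab9, which returns receptors from late endosomes to the Golgi and lies on the X chromosome, read 7.40, 7.49 and 7.65 in Tie2-cre lungs, against 8.03, 7.74 and 8.12 in control lungs (change of -0.45 in log2, adjusted p = 0.0888). Its groups were apart, with the Tie2-cre replicate that lacked Xist signal the highest of its group, and without that lung the log2 fold change was -0.52 (adjusted p = 0.150). The second Rab9 probe read 7.31, 7.36 and 6.97 in Tie2-cre lungs and 7.09, 7.28 and 7.16 in control lungs, overlapping, with that same lung the lowest (change of 0.04 in log2, adjusted p = 0.889). The exocytic Rab genes Rab3a, Rab8a and Rab10 had log2 fold changes of -0.05, 0.14 and 0.08 by the brightest probe, and none came near the threshold. The second Rab3a probe read 5.94, 5.64 and 5.81 in Tie2-cre lungs, against 5.22, 5.57 and 5.56 in control lungs, of which it was detected in 2 (change of 0.34 in log2, adjusted p = 0.165).

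Retromer was measured by all 3 of its core subunits. Vps35, the scaffold, read 12.75, 12.66 and 12.62 in Tie2-cre lungs and 12.88, 12.73 and 12.82 in control lungs by the brightest probe (change of -0.13 in log2, adjusted p = 0.413). Tie2-cre replicate 1 lay above control replicate 2, while by the second probe (-0.33, adjusted p = 0.143) they were apart. Vps29 by its brightest probe read 11.92, 11.88 and 11.91 in Tie2-cre lungs, against 12.13, 12.15 and 12.15 in control lungs (log2 fold change -0.24 ± 0.09, SE, adjusted p = 0.137), so this probe and the one past the threshold were both lower in every Tie2-cre lung. The third Vps29 probe was at 0.06 (adjusted p = 0.838). Vps26a, the arrestin-like subunit, was at 0.11 (adjusted p = 0.523).

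Probes of 1 gene often gave different answers. Of the 37 genes, 17 had several tested probes, which made 27 pairs of a dimmer with the brightest probe. For each pair the difference between the 2 probes was taken within each lung and compared between the groups by limma over 6141 pairs. In 6 of the 27 pairs, from 5 genes, this difference itself differed between the groups, where 8.47% of 6130 pairs of probes of 1 gene did. The log2 fold changes had opposite signs in 12 of the 27 pairs, or 44.4%, against 38.3% of all pairs. The genes were Rab5a (the third probe minus the brightest, difference of log2 fold changes 0.61, 95% interval 0.34 to 0.88, adjusted p = 0.0280), Rab7 (the second probe -0.91, adjusted p = 0.0383, and the third -0.77, adjusted p = 0.0433), Copg1 (the dimmest -0.82, adjusted p = 0.0411), Rab6a (the third 0.77, adjusted p = 0.0419) and Rab1b (the second 0.84, adjusted p = 0.0445). The second Rab1b probe read 7.57, 7.001 and 7.47 in Tie2-cre lungs and 7.27, 7.03 and 7.11 in control lungs (change of 0.21 in log2, adjusted p = 0.445), overlapping between the groups where the brightest was lower. Leaving out any lung but control replicate 2 left 0 of these 6 pairs past the threshold, and without control replicate 2 there were 8. Which exons or transcript ends the probes read was not tested, since probe sequences were not used here.

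**Figure D3:**
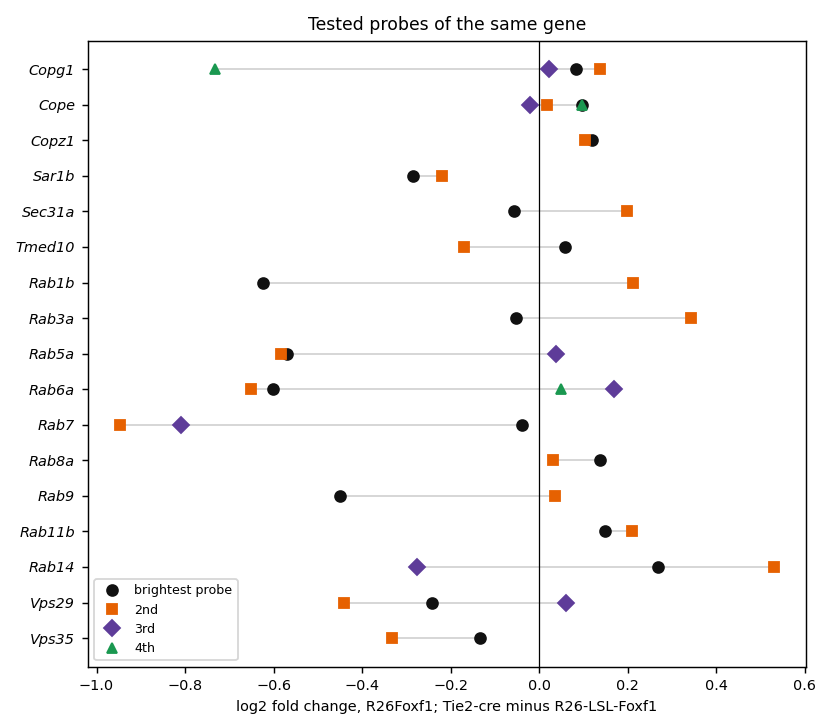
Log2 fold change, Tie2-cre minus control lungs, of every tested probe of the 17 genes with several tested probes, marked by rank of mean signal. The probes of Copz1 and Sar1b lie close together, while those of Copg1, Rab1b, Rab6a, Rab7 and Rab14 span both sides of 0 or are far apart.

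Close relatives were compared in the same way, by the brightest probe of each. Of 11 pairs of paralogs, 1 passed the threshold, where 8.47% of 6130 pairs of probes of 1 gene did. Rab5a minus Rab5b was 0.17, 0.38 and 0.40 in Tie2-cre lungs, against 1.15, 0.93 and 1.25 in control lungs. The difference was -0.79 (95% interval -1.10 to -0.49, adjusted p = 0.0271 by limma). This pair was picked after its values were seen, so its adjusted p is not independent support. Single-lung omission was not run on the paralog pairs. By these probes Rab5a was thus lower relative to Rab5b in every Tie2-cre lung. The second Rab5a probe had a log2 fold change of -0.58 and the third of 0.04 (adjusted p = 0.0825 and 0.864 by limma). The next pairs were Rab11a minus Rab11b (-0.47, 95% interval -0.77 to -0.18, adjusted p = 0.0571), Rab4a minus Rab4b (0.48, 95% interval 0.16 to 0.80, adjusted p = 0.0685) and Sar1b minus Sar1a (-0.42, 95% interval -0.73 to -0.12, adjusted p = 0.0786). Rab1b minus Rab1a was -0.44 (95% interval -0.76 to -0.12, adjusted p = 0.0832). Rab1a, which shares the role of Rab1b, had a log2 fold change of -0.19 by its brightest probe (adjusted p = 0.448) and of 0.56 by its second (adjusted p = 0.0782). The narrowest interval was that of Rab8a minus Rab8b (-0.04, 95% interval -0.29 to 0.21).

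The lungs did not contribute evenly to these differences. Of the 64 probes, 19 differed at an unadjusted p with the fold limit, 15 lower and 4 higher, or 29.7%, where the background was 24.9% (11.5% lower and 13.4% higher). In 13 of the 15 lower probes, control replicate 2 was the control lung nearest to the Tie2-cre lungs, which was so for 68.0% of all 2317 probes that were lower by this rule. Averaged over the 15 probes and set against the mean of the 6 lungs, the log2 signal was -0.30, -0.23 and -0.33 in Tie2-cre lungs, against 0.37, 0.00 and 0.49 in control lungs. Control replicates 1 and 3 were thus the high lungs, and control replicate 2 stood midway. Without control replicate 2, 7 genes passed the threshold by the brightest probe, all lower, where 5.06% of all genes passed (2.95% lower and 2.11% higher): Arf5, Sec23a, Tmed2, Rab1b, Rab5a, Rab6a and Rab9 (log2 fold changes -0.94 to -0.56, adjusted p = 0.0234 to 0.0474, 1704 probes called on the array, 39.4% of them higher). Without any other lung the count was 0, with 5 to 11 genes at an unadjusted p. Control replicate 2 was also the lung with the most skeletal muscle and lymphocyte marker signal, and the part of those cells in its position was not tested. In whole-lung RNA, fewer cells of a type and less RNA per cell cannot be told apart.

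**Figure D4:**
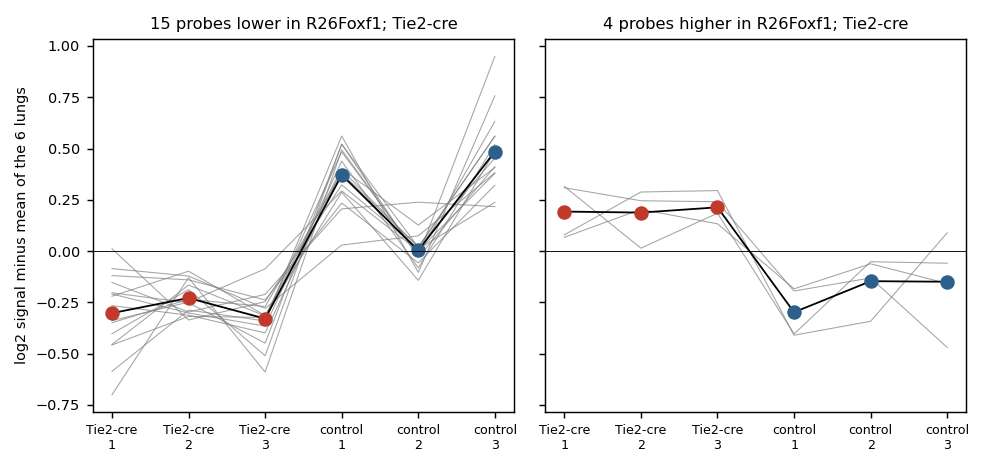
Log2 signal minus the mean of the 6 lungs for the 15 probes that were lower (left) and the 4 that were higher (right) in Tie2-cre lungs at an unadjusted p with a fold change of at least 1.2 (grey lines, 1 per probe, chosen on these values), with their mean (circles, Tie2-cre red, control blue). In the lower set control replicate 2 averages 0.00, between the Tie2-cre lungs at -0.33 to -0.23 and the other control lungs at 0.37 and 0.49.

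Other genes of the same route were read from 7 lists of 204 genes, of which 173 were tested. By the brightest probe 4 of 173, or 2.31%, passed the threshold, 3 higher and 1 lower, against 2.98% of all genes. Any probe was past it in 14, or 8.09%, against 5.79% of all genes, while 4.46% of the probes of these lists passed, against 4.51% of all probes. Where a gene is named below by a dimmer probe, its brightest probe did not pass. By the brightest probe the largest rise in log2 was 0.28 among other coat genes, 0.58 among tethers and 0.36 in the clathrin list. The largest fall was -0.40 among Rab regulators and -0.56 among partners of retromer. Around the coats, a dimmer probe of the exchange factor Gbf1, which activates ARF at the Golgi, was detected in all 3 Tie2-cre lungs. It was not above background in any control lung (5.61 ± 0.15 in Tie2-cre lungs and 4.93 ± 0.10 in control lungs, log2 mean and SD, n = 3 each). Its signal was at least 1.204-fold higher against the lowest detected signal of each control array (adjusted p = 0.0360 by limma). That probe passed the filter on dim probes through the Tie2-cre lungs alone, where it was high, so its adjusted p is not independent support. Among 41 tested tethers and fusion proteins between the endoplasmic reticulum and the Golgi, Golga2, a cis-Golgi matrix protein, rose by a dimmer probe (8.17 ± 0.35 in Tie2-cre lungs and 6.73 ± 0.36 in control lungs, a change of 1.44 in log2, adjusted p = 0.0331). Of the subunits of the TRAPP tether, Trappc2 rose by its brightest probe (0.58, adjusted p = 0.0388) and Trappc9 by a dimmer probe (0.93, adjusted p = 0.0369), and the SNARE gene Use1 fell by a dimmer probe (-0.50, adjusted p = 0.0451). Of 19 further p24, cargo and KDEL receptor genes, 14 had a lower mean in Tie2-cre lungs (median -0.17), and Ergic3, a cargo receptor between those compartments, fell by a dimmer probe (-0.63, adjusted p = 0.0483). Rab32, which serves lysosome-related organelles, fell by its brightest probe (9.13 ± 0.09 in Tie2-cre lungs and 9.76 ± 0.06 in control lungs, a change of -0.63 in log2, adjusted p = 0.0319), as did Rab28 by a dimmer one (-0.59, adjusted p = 0.0497). A dimmer probe of the GTPase-activating Rabgap1 was not above background in any Tie2-cre lung (5.27 ± 0.03) and was detected in all 3 control lungs (6.06 ± 0.23). It was at least 1.61-fold lower in Tie2-cre lungs by the same bound (adjusted p = 0.0357 by limma). This Rabgap1 probe passed the filter through the control lungs alone, where it was high, so the same limit holds for its adjusted p.

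The partners of retromer had calls in both directions. Of 14 tested genes, Vps26b, the alternative to Vps26a in the complex, rose (5.89 ± 0.10 in Tie2-cre lungs and 5.18 ± 0.20 in control lungs, SD, n = 3 each, adjusted p = 0.0388). It was detected in 3 Tie2-cre lungs and 1 control lung, and so passed the filter on dim probes through the Tie2-cre lungs. Its change of 0.72 in log2 was thus read against control lungs largely at background. Washc2, the WASH subunit that binds retromer, rose as well (0.49, adjusted p = 0.0452). Snx2, a sorting nexin (-0.86, adjusted p = 0.0446), and Vps26c, of the related retriever complex (-0.57, adjusted p = 0.0433), fell by a dimmer probe. In the clathrin list, 1 of 23 tested genes had a probe past the threshold, Ap1g1 of the Golgi adaptor AP-1, which rose by a dimmer probe (1.15, adjusted p = 0.0331).

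The promoters of the vesicle genes were searched on both strands for short motifs, and each share was set beside that over all 32851 promoter windows of the same length. RefSeq gave 44 windows for 37 of the 43 genes, and none for Arcn1, Rab18, Rab2a, Rab4a, Tmed2 or Vps35. The windows were richer in G and C than the rest (median 63.2% against 52.7%, with a median of 23 CpG against 7), and the part of base composition in the shares that follow was not tested. The core of the unfolded protein response element, TGACGTGG, bound by ATF6, was in 6 windows of 5 genes, or 13.6%, against 0.676% of all windows. The CLEAR element of lysosomal genes, a palindrome bound by TFEB, was in 4 windows of 3 genes, or 9.09%, against 0.326%. The GC box GGGCGG was in 72.7% against 35.7%, CCAAT in 43.2% against 37.4%, the CREB site TGACGTCA, which opens with the same TGACGT as the first motif, in 4.55% against 1.79%, and TATAAA in 4.55% against 13.6%. The forkhead letters GTAAACA (2.27% against 3.65%, Copb1) and ATAAACA (2.27% against 4.60%, Rab7) were each in 1 window. The ER stress element, which opens with CCAAT, was in no window, against 0.119% of all, and the NRF1 palindrome in none, against 0.971%.

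The windows with the unfolded protein response and CLEAR letters are shown because these motifs had the largest ratio of shares among those searched (GRCm38.p6, 5′ to 3′ in the direction of transcription, motif or its reverse complement in capitals). TGACGTGG lies in Arf1 chr11:59228214-59228271 (minus strand), Copb1 chr7:114254676-114254733 (minus), Copb2 chr9:98563699-98563756 (plus), Sec23a chr12:59011979-59012036 (minus) and Sec24d chr3:123267445-123267502 (plus). Of these genes Copb2, Sec23a and Sec24d were tested, with log2 fold changes of 0.10, -0.73 and -0.29.
Arf1: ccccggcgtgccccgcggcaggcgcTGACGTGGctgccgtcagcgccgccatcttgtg
Copb1: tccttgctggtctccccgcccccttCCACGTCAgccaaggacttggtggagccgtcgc
Copb2: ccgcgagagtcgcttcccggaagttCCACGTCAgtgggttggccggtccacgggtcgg
Sec23a: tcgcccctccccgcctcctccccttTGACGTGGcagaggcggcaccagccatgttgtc
Sec24d: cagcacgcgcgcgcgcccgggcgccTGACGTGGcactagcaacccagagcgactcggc

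The CLEAR letters, shown in capitals, lie in Rab21 chr10:115315589-115315648 (minus), Rab5a chr17:53479112-53479171 (plus) and, from separate annotated starts, Vps26a chr10:62486955-62487014 and chr10:62486717-62486776 (minus). The brightest probes of these genes had log2 fold changes of -0.01 (Rab21), -0.57 (Rab5a) and 0.11 (Vps26a), none of them past the threshold. A match describes the letters of the window only.
Rab21: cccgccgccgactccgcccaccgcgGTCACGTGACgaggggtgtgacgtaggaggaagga
Rab5a: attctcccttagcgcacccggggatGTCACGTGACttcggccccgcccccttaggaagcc
Vps26a, first window: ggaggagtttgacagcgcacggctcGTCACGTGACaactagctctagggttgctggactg
Vps26a, second window: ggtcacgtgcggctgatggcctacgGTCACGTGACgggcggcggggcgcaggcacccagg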

How the data were processed

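Whole-lung RNA of 3 R26Foxf1; Tie2-cre embryos and 3 controls was hybridized to Illumina mouse WG-6 BeadChips. For each probe the authors deposited a background-subtracted signal (intensity) with a detection p-value, and in a second table values on a log2 scale after robust spline normalization and variance stabilization; between 25.5% and 28.5% of the signals per lung were below 0, and all lungs had the same mean. The number of arrays limits the precision.

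Background was estimated from the detection p-values and signals were put on a log2 scale with an offset of 16 and quantile normalized (R 4.3.3, limma 3.58.1). Probes were kept where the detection p was below 0.01 in 3 or more of the 6 lungs, and these 20118 were compared with lmFit and eBayes and adjusted by the Benjamini-Hochberg method over all of them. Symbols came from the array annotation, updated to current names. A gene was represented by its tested probe of highest mean signal. The vesicle genes, the other gene lists and the pairs were chosen with earlier results of these data known. Single-lung values were given for each gene with a probe past the threshold, or past it when p was left unadjusted, the gene with the largest change in each class, and genes whose probes differed in sign with 1 at p under 0.05; from the other lists, up to 3 genes past the threshold in each direction. Exceptions to this rule are Copb2 and the paralog pair Rab5a and Rab5b, which were picked after their values were seen. The fits were tested on simulated data. Whether lungs of the same replicate number belong together is not stated in the labels, and the main fit treated the lungs as unpaired. Same-numbered lungs had correlations of 0.293, -0.036 and -0.027 between their deviations from the group means. Lungs of different numbers had correlations of -0.198 to 0.175. Deviations within a group of 3 lungs are tied to each other, so these correlations cannot decide whether the lungs were paired.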

Additional observations from a re-analysis of the deposited data

How the results depend on the processing

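With 3 lungs per group, the calls rested on single lungs and on the filter. Against 908 probes on the array and 1 vesicle gene past the threshold, the counts were 58 and 0 without a filter on dim probes, 1864 and 4 with a variance trend and robust moderation, 5011 and 10 at an unadjusted p, and 0 and 0 by the methods' t-test on either table (3516 probes and 6 vesicle genes on the signals, and 1838 and 5 on the deposited values, at an unadjusted p). The vesicle genes past the threshold were 2 with cyclic loess and 2 with median scaling (Sec23a and Rab1b in each), 3 on the deposited values (Rab1b, Rab5a and Rab14), 3 with detection on all 6 arrays (Sec23a, Rab1b and Rab5a) and 0 with the mean of a gene's probes. Median scaling (adjusted p = 0.0613) ended the Vps29 call, and cyclic loess (0.0519) and no background correction (0.0506) ended that of Rab14. Leaving out 1 lung gave 2 to 1704 probes, 0 to 7 vesicle genes, 0 to 8 of the probe pairs and a median log2 fold change of the vesicle genes of -0.0436 to 0.0443. With the replicate number as a block, 46 probes, 0 vesicle genes (9 at an unadjusted p) and 0 probe pairs passed, with adjusted p values of 0.0971 for Rab1b, 0.0948 for Rab14 and 0.1005 for Vps29; not every lung correlated best with its own number. Over these omissions the brightest probe of Rab3a had log2 fold changes of -0.131 to 0.0055, positive without Tie2-cre replicate 1, and that of Rab7 of -0.133 to 0.068, positive without control replicate 1 (0.035) or Tie2-cre replicate 3. Of 415 values of 26 named probes under the alternatives, 352 kept their direction and side of the threshold, 31 lost and 29 gained a call, and 3 changed sign. The cause of these differences was not tested. A slide block was not run because no slide is named. Cyclic loess, the deposited values, the replicate block, robust moderation and single-lung omission were applied to the probe pairs after the data had been seen.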
